A study of Mus musculus with 11 samples.

Results

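MamBo43 TRT is a mouse mammary carcinoma line that lost HER2 in cultures treated with trastuzumab. MamBo38 is a line that arrived at the same HER2-negative state without the drug. The 2 MamBo43 TRT and 4 MamBo38 RNA-seq libraries were compared with each other gene by gene, and they make up 6 of the 11 libraries of the study. Members were chosen by line and treatment label alone, so no measured value entered the choice. The question was how far the transcriptomes of both routes to HER2 loss resemble each other, and where they part.

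All lines came from FVBhuHER2 virgin female mice, which carry a human HER2 transgene. MamBo43 (labelled HER2 labile) is HER2-positive when untreated. MamBo43 TRT libraries came from MamBo43 cells seeded at high density and given 30 µg/ml trastuzumab, a therapeutic antibody against HER2, either for 60 days (the 60-day library) or for 30 days with 30 further days without it (the withdrawal library). MamBo38 (labelled HER2 loss) was established from a tumour that grew after MamBo43 cells had been injected into a mouse. Its loss of HER2 thus took place in the animal and not in culture, so the route to HER2 loss, passage through a mouse and the history as a separate line cannot be told apart in this comparison. MamBo38 was sequenced untreated in 2 libraries and once under each of the same 2 trastuzumab schedules. Untreated MamBo43, the common parent, was sequenced in 1 library and serves here as a reference with no replicate. Both lines trace back to 1 primary tumour, so neither route to HER2 loss has a second tumour behind it. According to the study's text, a small share of HER2-positive cells persisted in the treated MamBo43 cultures. The study also saw untreated MamBo43 cells lose HER2 in culture when seeded at lower density. It proposes that trastuzumab strengthens a loss that also occurs spontaneously.

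Library names carry 1 of 2 codes whose meaning the labels do not give. Both MamBo43 TRT libraries, the parent library and 1 untreated MamBo38 library share a code, whereas the other 3 MamBo38 libraries carry the other code. The MamBo38 library that shares the code of MamBo43 is called the code-matched library below, and every result was set against it. Values for MamBo38 are given in the order untreated with the other code, code-matched (also untreated), 30 days with and 30 days without trastuzumab, and 60 days with it. CPM are counts scaled to a common library size with TMM factors, and a level in CPM is comparable between libraries but not between genes, since it is not divided by gene length.

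Epithelial cells are held together by E-cadherin junctions, tight junctions and desmosomes, and keep splicing and transcription factors such as ESRP1 and GRHL2 switched on. In an epithelial-mesenchymal transition (EMT), factors of the SNAI, ZEB and TWIST families silence this programme, and cells take on vimentin, fibronectin, collagens and fibroblast-like receptors. Loss of HER2 from tumours driven by it has often been seen together with such a shift. The transition can be partial, and cells can then show parts of both programmes at once.

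Total counts ranged from 17263613 to 27127662 in the 6 libraries, and 3 counts, taken as the floor of detection, corresponded to 0.114 to 0.179 CPM. The 3 MamBo38 libraries with the other code differed from each other by at least 2-fold in 10 to 14 genes above 5 CPM, although they span untreated and treated cells, and the code-matched library differed from them in 561 to 725 genes. The MamBo43 TRT libraries differed from each other in 579 genes. The labels do not say whether libraries came from separate cultures, so p-values measure the spread between these libraries only. Defining markers of other cell types were at or near 0. All 9 endothelial markers were below 1 CPM in every one of the 6 libraries, and of the 11 immune markers only Cd68, which encodes a lysosomal protein, reached 1 CPM.

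At a Benjamini-Hochberg adjusted p under 0.1 in edgeR's quasi-likelihood test and a log2 fold change of at least 1 in either direction, 2715 of 12545 tested genes were called, which is 21.6% of them. Of these, 1242 (9.9%) were higher and 1473 (11.7%) were lower in MamBo43 TRT. The median log2 fold change of all tested genes was 0.0062. The groups did not overlap in any library for 2669 of the called genes, against 61.2% of all tested genes. Both MamBo43 TRT libraries lay on the called side of the code-matched library for 1219 of the 1242 higher genes and 1463 of the 1473 lower genes, and they lay at least 2-fold from it for 1005 and 1244 genes. With the library code as a covariate, 3288 genes (26.2%) were called, and 2353 of the 2715 genes were called again in the same direction. In that fit the group difference rests on the code-matched library, since no MamBo43 TRT library carries the other code. Libraries with the other code enter only its estimate of spread. Acta2 had 3.33 in that fit and 3.33 against the code-matched library alone. The covariate is thus not a check independent of that library.

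**Figure D1:**
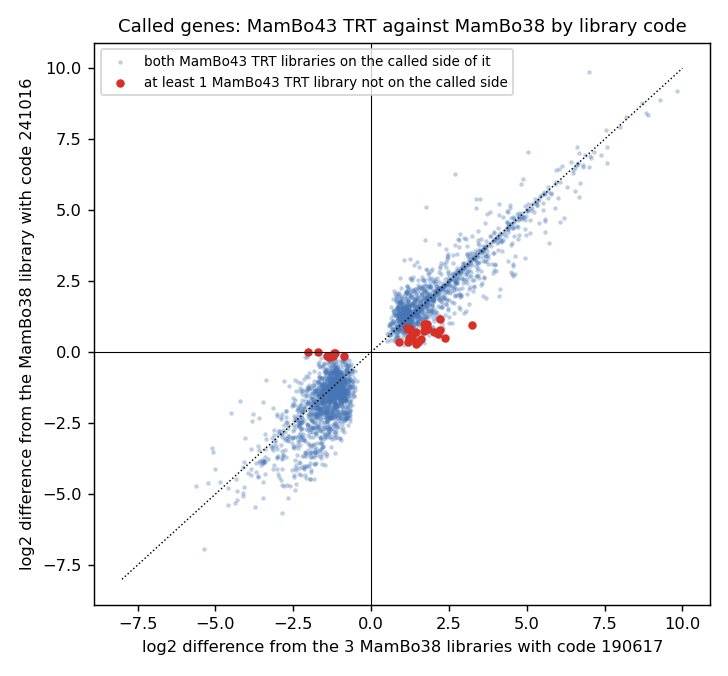
Each point is 1 of the 2715 called genes, with the log2 difference (CPM + 0.5) of the MamBo43 TRT mean from the mean of the 3 MamBo38 libraries with the other code on the x axis and from the code-matched MamBo38 library on the y axis, and the dotted line marks equal differences. The 33 red points are genes for which at least 1 MamBo43 TRT library was not on the called side of the code-matched library, and they lie nearer to 0 on the y axis than on the x axis.

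The 33 genes that failed this check included the interferon-stimulated gene Ifi27l2a, with 2.28 CPM in the code-matched library against 2.06 CPM in the withdrawal library, and the lysyl oxidase gene Lox, with 129 and 116 CPM. Both belong to lists described below and were picked after their values were seen. The parent line placed many called genes on an axis. Untreated MamBo43 lay above both MamBo43 TRT libraries for 737 of the 1242 higher genes (59.3%), so that MamBo43 TRT was intermediate between the parent and MamBo38. It lay below both MamBo43 TRT libraries for 648 of the 1473 lower genes (44.0%). For 121 higher and 131 lower genes the order was different, with the parent beyond MamBo38.

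**Figure D2:**
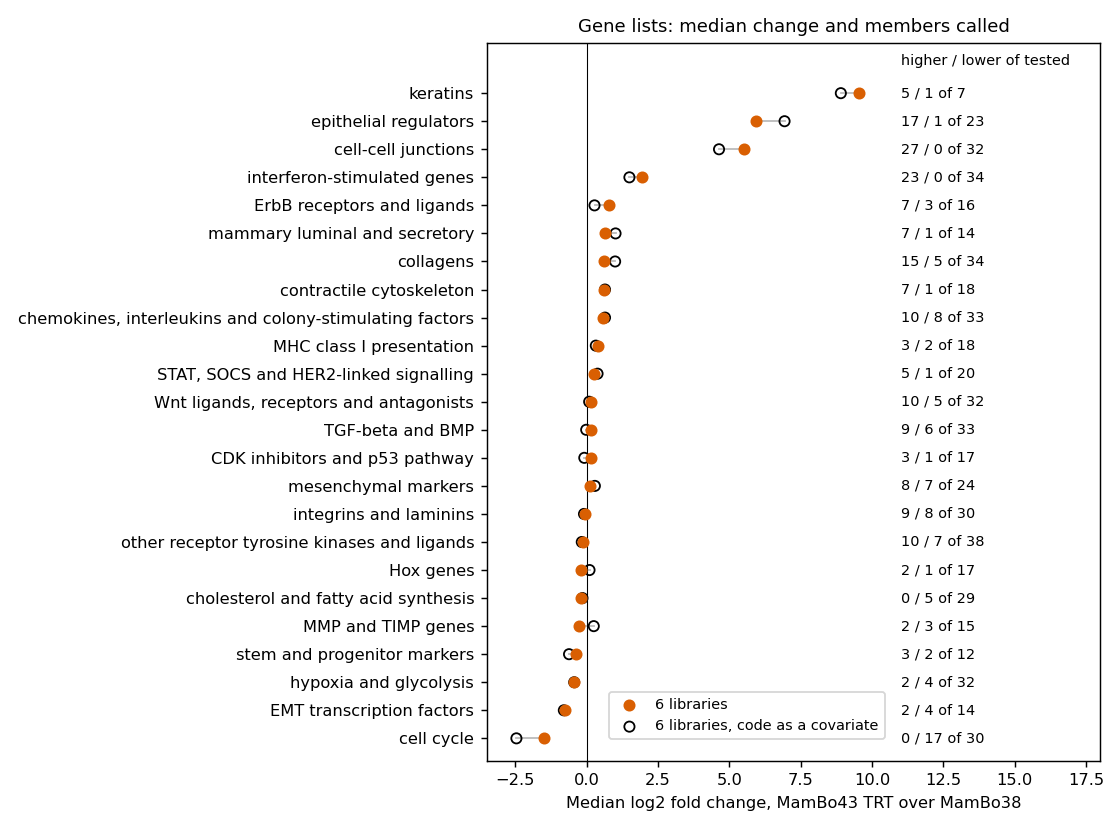
Median log2 fold change of MamBo43 TRT over MamBo38 (x axis) over the tested members of each gene list with at least 5 of them, in the fit of 6 libraries (filled) and with the library code as a covariate (open), with the numbers of members called higher and lower at the right. Epithelial lists stand farthest to the right with medians of 5.52 to 9.54 (4.25 to 9.54 with silent genes at their lower bound), and the cell cycle list stands farthest to the left at -1.49.

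The 10 largest increases were Esrp1, Mtap, Pcsk6, Gdf6, Cyp1b1, Spint1, Kcnk1, Dsg2, Homer2 and Ap1m2. In 9 of them no MamBo38 library held a single count, and in Esrp1 1 count was seen in 1 library. Esrp1 (chromosome 4 of GRCm38, 11331933 to 11386783), an RNA-binding protein that keeps splicing in its epithelial form, had 350.2 CPM in the withdrawal library and 82.3 CPM in the 60-day library, and 394 CPM in the parent. Its adjusted p was 2.12e-04. Spint1, an inhibitor of membrane-bound serine proteases, had 40.0 and 10.7 CPM (at least 168-fold higher, taken against the floor in MamBo38). Ap1m2, an adaptor subunit for protein sorting to the basolateral membrane, had 23.6 and 7.71 CPM (at least 104-fold higher). Dsg2, a desmosomal cadherin, had 28.3 and 8.78 CPM (at least 122.7-fold higher).

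Outside the epithelial lists, the largest increases held genes of several kinds. Cyp1b1, a cytochrome P450 that oxidises oestrogens and polycyclic hydrocarbons, had 24.6 CPM in the withdrawal library and 34.9 CPM in the 60-day library. Gdf6, a ligand of the BMP family, was at 88.4 and 7.75 CPM (at least 319-fold higher), with a wide gap within the group. The proprotein convertase Pcsk6 had 76.1 and 21.0 CPM. Kcnk1, a potassium channel, had 36.5 and 10.1 CPM, and the scaffold gene Homer2 had 27.4 and 4.83 CPM. In 9 of these 10 genes the withdrawal library was the higher of both, Cyp1b1 being the exception.

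The 10 largest decreases were Kcnk5, Sobp, Crabp1, Bglap, Osbpl6, Hgf, Aldh3a1, Ankrd33b, Gfra2 and Nptx1. Hgf (chromosome 5, 16553495 to 16620152), the ligand of the MET receptor and typically a product of stromal cells, had 28.2, 7.51, 19.0 and 22.02 CPM in the MamBo38 libraries against 0.098 and 0.307 CPM in MamBo43 TRT (log2 fold change -6.46, standard error 0.77, adjusted p = 9.46e-04). The code-matched library was the lowest of the MamBo38 libraries and still stood far above MamBo43 TRT. Crabp1, a carrier of retinoic acid, showed the opposite spread within MamBo38, with 36.7, 126, 39.8 and 52.3 CPM, against 0.784 and 0.307 CPM. Aldh3a1, an aldehyde dehydrogenase, had 113, 48.7, 86.7 and 72.5 CPM against 2.06 and 0.652 CPM. Kcnk5 held no count in either MamBo43 TRT library and 4.67 to 18.4 CPM in MamBo38. Bglap, the osteocalcin gene, is uncertain, since transcripts of other genes, mostly Bglap2, hold 50% of its windows of 75 bases. In all of these genes but Kcnk5, Crabp1, Bglap and Ankrd33b the parent line held at least 1 count, and its level did not exceed 1.72 CPM in any of the 10.

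Epithelial lists had the largest medians of the lists with at least 5 tested members. Of 32 tested junction genes, 27 were called higher and 0 lower in MamBo43 TRT (median log2 fold change 5.52), of 23 epithelial regulators 17 higher and 1 lower (median 5.92), and of 7 tested keratins 5 higher and 1 lower (median 9.54). With genes silent in all MamBo38 libraries set at their lower bound, the medians were 4.76 for junction genes and 4.25 for regulators. Both MamBo43 TRT libraries lay at least 2-fold above the code-matched library for 23 of the 27 junction genes and for all 17 regulators. Cdh1 (E-cadherin, chromosome 8, 106603351 to 106670246) had 0.913, 0.834, 0.835 and 1.52 CPM in MamBo38, 201 CPM in the withdrawal library, 72.1 CPM in the 60-day library and 774 CPM in the parent (log2 fold change 7.01, standard error 0.45, adjusted p = 1.77e-04). Epcam (chromosome 17, 87635979 to 87651129), a cell-surface adhesion molecule of epithelia, had 0.048, 0.278, 0.119 and 0.038 CPM, then 158, 30.8 and 632 CPM (log2 fold change 9.67, standard error 0.84, adjusted p = 3.14e-04). For both genes MamBo38 sat near the floor, and MamBo43 TRT lay between it and the parent.

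Among the other junction genes, the tight-junction proteins Ocln and Lsr had at most 0.056 CPM in MamBo38, against 13.5 and 2.07 CPM of Ocln and 41.5 and 12.1 CPM of Lsr. The polarity gene Crb3 had 8.04 and 2.57 CPM and no count in MamBo38. The 5 junction genes not called were Cldn1, Tjp1, Pkp2, Ppl and Ctnnd1, with log2 fold changes between -0.62 and 2.02. Jup, plakoglobin, was called higher with 80.1 and 41.0 CPM against 15.7 to 25.98 CPM in MamBo38, and its 60-day library lay less than 2-fold above the code-matched library. Ehf, an ETS factor of epithelia, had 17.5 and 10.82 CPM against at most 0.056 CPM. Tfap2a was the 1 regulator called lower, with 25.2 and 24.5 CPM against 51.7 to 64.9 CPM in MamBo38 (log2 fold change -1.18).

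Keratins 8 and 18, the pair of simple and luminal epithelia, were nearly absent from MamBo38. Krt18 had 0.240, 1.06, 0.716 and 0.759 CPM there, 913 CPM in the withdrawal library and 109.9 CPM in the 60-day library (log2 fold change 9.54, standard error 0.91, adjusted p = 4.19e-04). Krt8 had 470.0 and 64.4 CPM, with 22% of its windows shared with a Krt8 pseudogene. Krt7 had 643 and 97.9 CPM against at most 0.278 CPM, and the withdrawal library exceeded the 260.2 CPM of the parent. Krt14, a keratin of basal and myoepithelial cells, ran the other way, with 9.90 CPM in the withdrawal library, 111 CPM in the 60-day library and 2.39 CPM in the parent. Krt13, a keratin of stratified epithelia, was the 1 called lower, with 0.179 to 2.34 CPM in MamBo38 and 0.049 and 0.077 CPM in MamBo43 TRT, and that call was lost without either MamBo43 TRT library.

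The level of epithelial transcripts in MamBo43 TRT was also expressed as a percent of that in the parent, over the 35 genes of these 3 lists with under 2 CPM in every MamBo38 library and at least 10 CPM in the parent. The median was 24.1% in the withdrawal library, with a range of 2.98% to 247%, and 8.34% in the 60-day library, with a range of 1.83% to 181%. The withdrawal library was the higher of both for 33 of the 35 genes, Trp63 and Cldn8 being the exceptions. In bulk RNA, fewer epithelial cells and less epithelial RNA per cell cannot be told apart, and the part of remaining HER2-positive cells in these values was not tested.

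**Figure D3:**
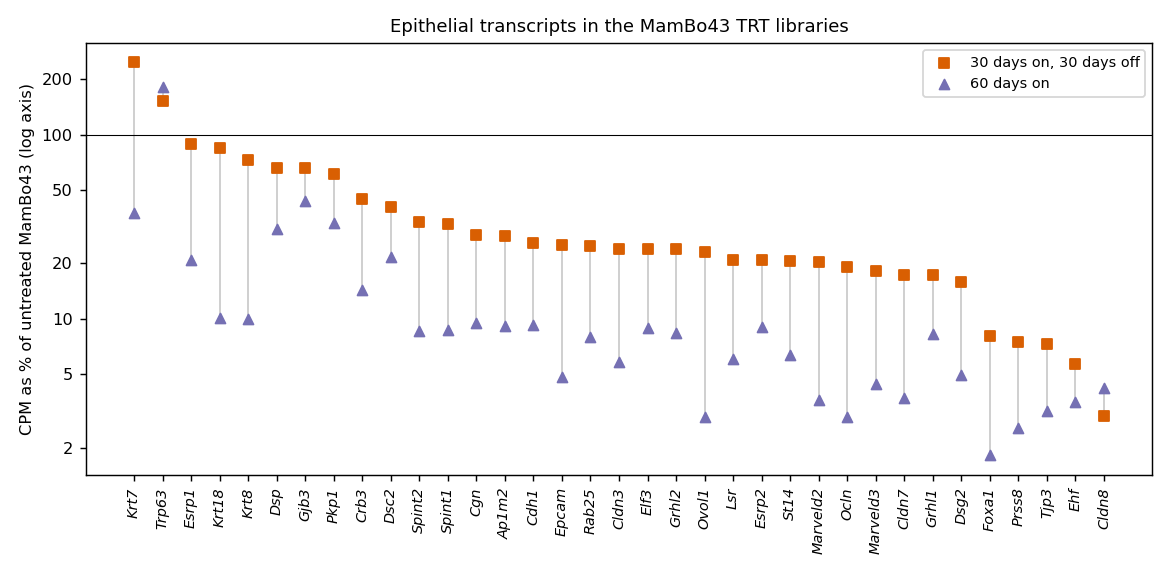
CPM of 35 epithelial genes in both MamBo43 TRT libraries as a percent of untreated MamBo43, on a log axis, with genes ordered by the withdrawal library (squares) and the 60-day library as triangles. The squares have a median of 24.1% and the triangles of 8.34%, and Krt7 and Trp63 lie above the parent in at least 1 library.

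The sequence before the start of 2 of these genes is shown because CAGGTG, an E-box bound by factors of the SNAI and ZEB families, occurs there. It was searched on both strands (CACCTG on the other) in the 250 bases before each start in RefSeq's windows (GRCm38.p6). Of the 44 junction genes and regulators called higher, 21 had a window and 13 of those (61.9%) held the motif, against 19.4% of the 27025 genes with a window and 1 of 5 among the uncalled members. Cdh1 has no entry in that table. Epcam lies in chr17:87635729-87635978 (+ strand) and Rab25, a small GTPase of epithelial recycling endosomes, in chr3:88548280-88548529 (- strand), and the motif is in capitals.
Epcam: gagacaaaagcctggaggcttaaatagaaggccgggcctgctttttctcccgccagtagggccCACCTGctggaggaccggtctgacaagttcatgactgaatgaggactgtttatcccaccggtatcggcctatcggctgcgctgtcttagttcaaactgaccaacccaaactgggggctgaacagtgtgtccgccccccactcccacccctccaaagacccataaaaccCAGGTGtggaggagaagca
Rab25: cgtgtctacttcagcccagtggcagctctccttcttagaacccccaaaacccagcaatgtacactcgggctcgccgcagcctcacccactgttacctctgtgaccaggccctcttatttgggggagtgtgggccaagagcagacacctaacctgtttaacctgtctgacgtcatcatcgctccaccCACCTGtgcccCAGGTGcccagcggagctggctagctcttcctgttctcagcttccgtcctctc
Rab25 had 0, 0.111, 0.119 and 0.038 CPM in MamBo38 and 32.8 and 10.5 CPM in MamBo43 TRT. It was chosen for its window after the values had been seen. The match describes letters only, and no binding was measured.

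EMT transcription factors were called in both directions. Of 14 tested, 2 were called higher and 4 lower in MamBo43 TRT (median log2 fold change -0.75). Zeb1, a repressor of E-cadherin, had 106, 109.5, 98.4 and 112 CPM in MamBo38 against 47.5 and 54.2 CPM in MamBo43 TRT and 2.86 CPM in the parent (log2 fold change -1.06, standard error 0.11, adjusted p = 5.22e-04). Without the withdrawal library it was at -0.96, under the fold threshold. Zeb1 was also not called in edgeR's fit of all 11 libraries (-1.07, adjusted p = 0.11) or by glmTreat, the test against the fold change minimum (adjusted p = 0.601). Its paralog Zeb2 had 138, 106, 131 and 129 CPM against 116 and 145 CPM, so that the groups overlapped, while the parent had 3.76 CPM (log2 fold change 0.054, adjusted p = 0.777). Both kinds of HER2-negative cells held more Zeb2 than the 1 parent library.

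Snai1 and Twist1 were not called, with log2 fold changes of -0.95 and -0.20. Snai1 had 12.1 and 12.5 CPM in MamBo43 TRT and 19.1 to 27.9 CPM in MamBo38, and for Twist1 the groups overlapped. Foxc2, Twist2 and Prrx2, all mesenchymal factors, were called lower with log2 fold changes of -1.58, -1.45 and -1.22. The homeobox genes Msx2 and Msx1 were called higher. Msx2 had 36.8 and 13.3 CPM against 0.531 to 1.28 CPM in MamBo38 and 77.2 CPM in the parent.

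Mesenchymal markers split almost evenly. Of 24 tested, 8 were higher (Cdh11, Thy1, Tnc, Postn, Bgn, Nt5e, Pdgfrb and Lox) and 7 lower (Loxl2, S100a4, Pdgfra, Vim, Itga5, Cdh2 and Sparc) in MamBo43 TRT, with a median log2 fold change of 0.11. Vim (vimentin, chromosome 2, 13573927 to 13582826), the intermediate filament of mesenchymal cells, had 2004, 3497, 2239.8 and 2597 CPM in MamBo38, 527 and 544 CPM in MamBo43 TRT and 25.9 CPM in the parent. The MamBo43 TRT libraries were close to each other and lay between the parent and the lowest MamBo38 library. Fn1, fibronectin, was at 23708, 15541, 25086 and 25597 CPM in MamBo38 and 34116 and 39853 CPM in MamBo43 TRT, with 559 CPM in the parent, and it was not called (log2 fold change 0.72, standard error 0.20, adjusted p = 0.0229). With the code as a covariate it was called higher, at 1.24 (adjusted p = 6.10e-04), and the code-matched library was the lowest of MamBo38.

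Cdh11, Thy1, Tnc and Postn had the largest increases among mesenchymal genes. Postn, periostin, a matrix protein, had 26.04, 22.4, 31.3 and 36.6 CPM in MamBo38 and 2224 and 1712 CPM in MamBo43 TRT (log2 fold change 6.08, standard error 0.21, adjusted p = 2.54e-05), and 2949.5 CPM in the parent. Tnc, tenascin C, had 0.445 to 1.39 CPM against 92.6 and 188 CPM, above the 19.2 CPM of the parent. Cdh11, a cadherin of mesenchymal cells, had 2 counts in all MamBo38 libraries together and 9.95 and 26.5 CPM in MamBo43 TRT (adjusted p = 2.74e-04). Thy1, a surface glycoprotein of fibroblasts, had 14.0 and 6.10 CPM and 1 count in MamBo38 (adjusted p = 2.36e-04). Among the decreases, S100a4 had 219.9 to 447 CPM in MamBo38 against 29.2 and 36.7 CPM, and Loxl2 50.3 to 68.6 CPM against 0.980 and 7.25 CPM. Both are uncertain, with 44.8% and 43.6% of windows shared with other transcripts.

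**Figure D4:**
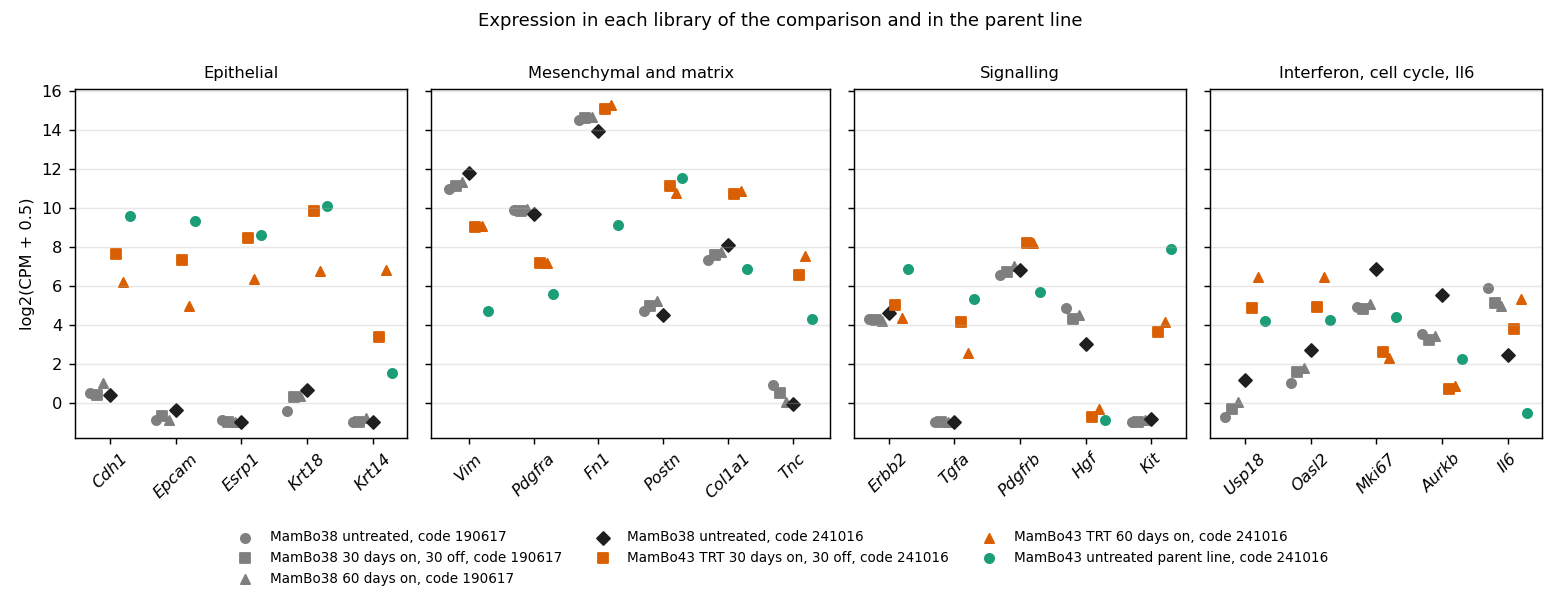
log2(CPM + 0.5) of genes described in the text in the 4 MamBo38 libraries (grey, code-matched in black, with the codes as the labels give them), both MamBo43 TRT libraries (orange) and untreated MamBo43 (green). MamBo43 TRT lies between MamBo38 and the parent for Cdh1, Epcam and Vim, above both for Col1a1 and Tnc, and overlaps MamBo38 for Erbb2 and Il6.

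Of 34 tested collagens, 15 were called higher and 5 lower (median 0.60). Col9a1, a cartilage collagen, had 1 count in MamBo38 and 19.3 and 8.17 CPM in MamBo43 TRT, against 476 CPM in the parent. Col10a1 had 0.239 to 0.480 CPM in MamBo38, 6.52 CPM in the withdrawal library and 63.1 CPM in the 60-day library. Col8a2, with 3.23 and 2.42 CPM, and Col9a2, with 4.21 and 0.614 CPM, each had 1 count in MamBo38. Among the 5 lower, the basement-membrane collagen Col18a1 had 2187 to 2993 CPM in MamBo38 against 923 and 1018 CPM. Col15a1, Col14a1 and Col5a3 were lower by log2 fold changes of -4.40, -3.11 and -1.77.

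Contractile genes were called higher in 7 and lower in 1 of 18 cases, and against the code-matched library alone 4 were called higher. Acta2, smooth muscle actin of myofibroblasts and myoepithelial cells, had 9.03, 26.5, 8.47 and 7.44 CPM in MamBo38, 69.1 CPM in the withdrawal library and 467 CPM in the 60-day library (log2 fold change 4.39, standard error 0.77, adjusted p = 0.00423). Its call was lost against the code-matched library alone, at 3.33 with an adjusted p of 0.15. Myl9, a myosin light chain, went from 0.038 to 0.667 CPM in MamBo38 to 6.32 and 35.5 CPM, and Myh10, a non-muscle myosin, from at most 0.656 CPM to 86.9 and 27.5 CPM. Acta1 was higher at low levels, with 1.32 and 2.80 CPM. Mylk was the 1 lower, with 5.63 and 4.99 CPM against 12.5 to 22.9 CPM. For Acta2, Myl9, Krt14 and Col10a1 alike, the 60-day library held several times more than the withdrawal library.

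Matrix-degrading enzymes and their inhibitors were called in both directions. Of 15 tested, Mmp15 and Timp3 were higher and Mmp14, Mmp16 and Timp1 lower, with a median log2 fold change of -0.29. When the fit held the library code, 5 were called higher and 3 lower, and the median was 0.25. Timp3, a tissue inhibitor of metalloproteinases, had 1518, 2203, 1500.1 and 1647 CPM in MamBo38 and 12448 and 8219.9 CPM in MamBo43 TRT (log2 fold change 2.59, standard error 0.21, adjusted p = 2.73e-04). Mmp14, the membrane-bound collagenase, had 420.5 to 546 CPM against 221 and 269 CPM, a log2 fold change of -1.03 that was -0.79 when the fit held the code, and was then not called. Among 30 integrins and laminins 9 were higher and 8 lower. The higher ones included the epithelial laminin chains Lamb3 (449.8 and 129.5 CPM against at most 1.45 CPM) and Lama5 (669 and 349 CPM against 12.4 to 19.7 CPM), together with Lama1 and Itgb6. The lower ones included Itgb7, at 104 to 152 CPM in MamBo38 against 2.60 and 5.48 CPM, and Itgb2, at 12.8 to 15.1 CPM against 0.686 and 0.767 CPM, both known from leukocytes, as well as Itgb4 and Itga2b.

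Mouse Erbb2, the endogenous counterpart of the human transgene, which is not in the mouse gene table, did not separate the groups. It had 19.1, 24.0, 18.5 and 17.9 CPM in MamBo38, 31.6 and 19.9 CPM in MamBo43 TRT and 117 CPM in the parent (log2 fold change 0.38, standard error 0.22, adjusted p = 0.196). The processing notes name only a mouse genome, and whether reads of the human transgene were counted as Erbb2 was not tested. Of 16 tested ErbB receptors, ligands and feedback genes, 7 were called higher and 3 lower, and 4 were called higher without the withdrawal library and 3 against the code-matched library alone. Tgfa, a ligand of EGFR, had no count in MamBo38 and 16.9 and 5.29 CPM in MamBo43 TRT (at least 73.5-fold higher), against 38.9 CPM in the parent. Grb7, an adaptor that binds phosphorylated HER2, had 4.80 and 2.11 CPM against at most 0.06 CPM.

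Egfr and Erbb3, the partners of HER2 in dimers, were called higher, and neither was called when the fit held the code. Egfr had 16.3, 34.0, 16.3 and 15.4 CPM in MamBo38 and 34.4 and 55.0 CPM in MamBo43 TRT, so that the code-matched library lay close to the withdrawal library, and the log2 fold change of 1.13 was 0.39 when the fit held the code (adjusted p = 0.26). Erbb3 had 2.92 to 5.67 CPM against 23.9 and 6.83 CPM, and its adjusted p was 0.128 with the covariate. Areg (log2 fold change 2.40) rested on the withdrawal library, at 127 CPM against 10.4 CPM in the 60-day library and 8.29 to 17.01 CPM in MamBo38, and without the withdrawal library its log2 fold change was -0.31. Nrg2 was higher, with 11.4 and 6.67 CPM against 0.817 to 2.28 CPM. The ligand Ereg and the feedback inhibitors Lrig1 and Errfi1 were lower, with log2 fold changes of -1.23, -1.34 and -1.16, and Errfi1 was at -0.99 with the covariate, just under the threshold.

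Of 38 other receptor tyrosine kinases and their ligands, 10 were higher and 7 lower. Platelet-derived growth factor receptors parted in direction. Pdgfrb had 92.4, 114, 103 and 129 CPM in MamBo38 and 298 and 293 CPM in MamBo43 TRT (log2 fold change 1.43, standard error 0.13, adjusted p = 3.83e-04), with 50.9 CPM in the parent. Pdgfra had 938, 814, 930.3 and 999.9 CPM in MamBo38 and 146 and 146 CPM in MamBo43 TRT (log2 fold change -2.65, standard error 0.12, adjusted p = 7.04e-05). In neither gene did the groups overlap.

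Gas6, the ligand of the AXL, TYRO3 and MERTK receptors, had 0.528, 1.17, 0.716 and 0.835 CPM in MamBo38 and 191 and 112 CPM in MamBo43 TRT, against 1339 CPM in the parent (log2 fold change 7.55, standard error 0.30, adjusted p = 4.35e-05). Kit, the stem cell factor receptor, had 11.9 and 16.9 CPM and at most 0.056 CPM in MamBo38, while its ligand Kitl went the other way, with 255 to 511 CPM in MamBo38 and 74.7 and 87.6 CPM in MamBo43 TRT. Fgfbp1, with 28.7 and 4.87 CPM, and Pdgfb, with 1.91 and 1.19 CPM, each had 2 counts in all MamBo38 libraries together. Hgf, Pdgfra, Kitl and Vegfd, an angiogenic factor at 8.77 to 13.7 against 1.27 and 4.14 CPM, were the largest decreases.

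Of 20 genes of STAT, SOCS and HER2-linked signalling, 5 were called higher and 1 lower, and 8 were higher and 0 lower with the library code as a covariate. Stat5a, a mediator of prolactin signalling, had 73.9 and 42.1 CPM against 19.8 to 22.96 CPM, and Efnb1 24.4 and 23.5 CPM against 8.02 to 11.1 CPM. Stat3 was not called, at 312, 196, 305 and 304 CPM against 255 and 257 CPM. Il6, an inflammatory cytokine that activates STAT3, had 59.1, 4.95, 34.5 and 31.3 CPM in MamBo38 and 13.5 and 40.0 CPM in MamBo43 TRT, with 0.196 CPM in the parent, and was not called (log2 fold change -0.28, standard error 0.81, adjusted p = 0.803). Its code-matched library was far below the other 3, and with the code as a covariate Il6 was called higher in MamBo43 TRT, at 2.43 (adjusted p = 0.0349). The direction of Il6 thus depended on which MamBo38 libraries it was set against. Il6ra was called lower at -1.02 and was at -0.58 with the covariate, under the fold threshold.

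Stem and progenitor markers moved in both directions. Of 12 tested, Prom1, Kit and Cd24a were higher and Procr and Ly6a lower. When the fit held the library code, 3 were called higher and 6 lower. The study scored surface protein and took CD24-negative and CD44-high cells as stem-like. Higher Cd24a is therefore a step away from that profile and not a gain of a stem marker. Cd24a had 3.41, 1.28, 2.62 and 2.09 CPM in MamBo38, 41.1 and 18.3 CPM in MamBo43 TRT and 342 CPM in the parent (log2 fold change 3.66, standard error 0.41, adjusted p = 7.83e-04). Ly6a, which encodes Sca-1, had 186, 214, 204 and 182 CPM in MamBo38, 54.9 and 77.1 CPM in MamBo43 TRT and 3.56 CPM in the parent (log2 fold change -1.57, standard error 0.16, adjusted p = 5.94e-04). In both genes MamBo43 TRT lay between the parent and MamBo38. Cd44 had 184, 289, 175 and 196 CPM in MamBo38 against 133 and 133 CPM and was not called at -0.66, and it was called lower with the covariate, at -1.13. Itgb1, which encodes CD29, was at 719.5 to 904 CPM and 888 and 838 CPM and was not called.

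Of 14 luminal and secretory genes, 7 were higher and 1 lower. Lcn2, lipocalin 2, had 10.6, 0.723, 7.34 and 7.21 CPM in MamBo38 against 1612 and 652 CPM in MamBo43 TRT (log2 fold change 7.44, standard error 0.76, adjusted p = 5.29e-04). Wfdc2, a secreted protein of ductal epithelium, had 117 and 25.3 CPM against at most 0.298 CPM. Prlr, the prolactin receptor, had no count in MamBo38, 0.637 and 0.690 CPM in MamBo43 TRT and 28.8 CPM in the parent. Spp1, osteopontin, was called lower at -1.14, with 5289.6 CPM in the withdrawal library and 1682 CPM in the 60-day library, and the call was lost with the covariate.

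In the TGF-beta and BMP list, 9 of 33 genes were higher and 6 lower. Ligands of the activin group were higher, Inhbb with 34.98 and 15.7 CPM against 0.239 to 1.11 CPM and Inhba with 99.0 and 91.4 CPM against 24.0 to 30.5 CPM. Bmp4 had 148 and 42.2 CPM against 9.85 to 14.5 CPM, whereas Bmp2 and Bmp6 were lower, Bmp6 with 16.3 and 19.8 CPM against 49.8 to 70.8 CPM. Tgfbi, a matrix protein induced by TGF-beta, had 262, 385, 287 and 314 CPM in MamBo38 and 51.1 and 39.3 CPM in MamBo43 TRT (log2 fold change -2.79, standard error 0.21, adjusted p = 2.29e-04). The BMP antagonist Grem1 was lower at -2.02, and the antagonist Nog was higher at low levels, with 0.980 and 0.959 CPM against 1 count in each MamBo38 library.

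In the Wnt list, 10 of 32 genes were higher and 5 lower. Wnt7b, a ligand made by epithelial cells, had 0.961, 1.11, 1.014 and 0.683 CPM in MamBo38 and 300.1 and 68.1 CPM in MamBo43 TRT, close to the 282 CPM of the parent in the withdrawal library. The inhibitor Nkd2 had 10.1 and 10.5 CPM against at most 0.167 CPM, and Wif1 and the receptor Fzd3 were higher at levels under 3 CPM. Dkk2, Rspo2, Rspo3 and Notum, all secreted modulators, were lower, with log2 fold changes of -4.56, -2.83, -1.69 and -2.56, of which Rspo3 was lost with the covariate, at -0.35. Among 17 Hox genes, Hoxa10 (7.45 and 3.64 CPM against at most 0.096 CPM) and Hoxa9 were higher and Hoxc6 was lower.

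Interferon-stimulated genes were higher in MamBo43 TRT in 23 of 34 cases and lower in 0, with a median log2 fold change of 1.93. These genes are switched on by type I and II interferons, and many of their products act against viruses. Usp18, a protease that removes ISG15 from proteins, had 0.096, 1.72, 0.298 and 0.531 CPM in MamBo38, 29.1 CPM in the withdrawal library, 87.6 CPM in the 60-day library and 17.6 CPM in the parent (log2 fold change 6.49, standard error 0.75, adjusted p = 8.38e-04). Oasl2, an antiviral protein of the oligoadenylate synthetase family, had 1.54, 5.95, 2.45 and 2.96 CPM, then 29.3, 87.6 and 18.4 CPM. Both genes were lowest in the MamBo38 libraries with the other code, higher in the code-matched library and highest in the 60-day library.

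Oas2 had 4.61 and 9.86 CPM against 0 to 0.946 CPM. Oas1a had 7.40 and 15.2 CPM against 0.06 to 1.11 CPM and is uncertain, with 47.6% of its windows shared with Oas1g. For 33 of the 34 genes the 60-day library lay above the withdrawal library, with a median log2 difference of 1.18 between them. The median log2 difference of MamBo43 TRT from the code-matched library was 1.47, and from the other 3 MamBo38 libraries it was 1.95. With the code as a covariate 20 members were called higher and 2 lower, and against the code-matched library alone 11 were called higher. Relative to the parent, the median log2 difference of MamBo43 TRT was 0.27.

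The windows of 3 of these genes are shown because the core of the interferon-response element (GAAA, then 2 bases of any kind, then GAAA) lies in them. Of the 23 genes called higher, 16 had a RefSeq window of 250 bases before the start and 8 of those (50%) held the motif on either strand, as did 4 of 9 uncalled members (44.4%), against 3.46% of all 27025 genes with a window. Overlapping matches are joined in the capitals. The windows are chr4:156200819-156201068 (- strand), chr19:34583279-34583528 (+ strand) and chr5:120907526-120907775 (- strand) of GRCm38.p6.
Isg15: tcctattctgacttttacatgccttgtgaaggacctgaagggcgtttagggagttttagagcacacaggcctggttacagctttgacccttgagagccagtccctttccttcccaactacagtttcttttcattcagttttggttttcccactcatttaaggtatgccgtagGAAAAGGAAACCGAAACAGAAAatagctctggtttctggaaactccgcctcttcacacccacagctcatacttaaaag
Ifit3: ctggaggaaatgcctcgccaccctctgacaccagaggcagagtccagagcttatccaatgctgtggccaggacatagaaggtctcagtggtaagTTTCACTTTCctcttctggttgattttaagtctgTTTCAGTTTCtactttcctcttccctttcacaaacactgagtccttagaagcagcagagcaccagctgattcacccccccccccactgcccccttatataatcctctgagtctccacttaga
Oas1a: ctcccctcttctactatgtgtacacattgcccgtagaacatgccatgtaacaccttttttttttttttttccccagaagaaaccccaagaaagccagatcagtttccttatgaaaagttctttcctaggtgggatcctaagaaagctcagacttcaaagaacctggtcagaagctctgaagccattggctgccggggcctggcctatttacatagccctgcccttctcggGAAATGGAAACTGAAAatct
Isg15, a ubiquitin-like modifier, had 9.51, 14.3, 10.98 and 9.91 CPM in MamBo38, 65.8 and 163 CPM in MamBo43 TRT and 16.3 CPM in the parent (log2 fold change 3.36, standard error 0.33, adjusted p = 4.91e-04). Ifit3, an antiviral RNA-pathway protein, had 1.10 to 7.40 CPM in MamBo38 and 21.8 and 83.5 CPM in MamBo43 TRT. Both were chosen for their windows after the values had been seen.

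Of 18 genes of MHC class I presentation, 3 were higher and 2 lower. The non-classical genes H2-Q7, H2-Q6 and H2-Q4 were higher, H2-Q7 with 17.1 and 41.0 CPM against 1.73 to 3.56 CPM, and they are uncertain, with 17%, 17.9% and 7.02% of windows shared with other genes. Psmb10, a subunit of the immunoproteasome, and Tapbp, the peptide-loading factor tapasin, were lower, with log2 fold changes of -1.25 and -1.01. Among 33 chemokines, interleukins and colony-stimulating factors 10 were higher and 8 lower, with 6 higher against the code-matched library alone and 5 lower without the withdrawal library. Csf3 had 5.34 and 2.34 CPM against 0.056 to 0.228 CPM, Cxcl16 21.2 and 8.98 CPM against 1.35 to 3.28 CPM, and the interleukin 1 antagonist Il1rn 2.16 and 3.34 CPM against 1 count in all MamBo38 libraries together. Il34, a ligand of the CSF1 receptor, had 150.4, 272, 165 and 170.1 CPM in MamBo38 and 31.7 and 37.2 CPM in MamBo43 TRT (log2 fold change -2.46). The alarmin Il33 was lower in MamBo43 TRT, with 0.735 and 0.537 CPM, than in MamBo38 (6.32 to 28.8 CPM) and than in the parent (106 CPM). Ccl5 and Il16 were lower by log2 fold changes of -3.54 and -2.04.

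Cell cycle genes were lower in MamBo43 TRT in 17 of 30 cases and higher in 0, with a median log2 fold change of -1.49. Mki67, the proliferation antigen, had 29.8, 114, 27.4 and 32.9 CPM in MamBo38, 5.49 and 4.45 CPM in MamBo43 TRT and 20.5 CPM in the parent (log2 fold change -3.36, standard error 0.74, adjusted p = 0.00985). Aurkb, a mitotic kinase, had 10.9, 45.1, 8.77 and 10.2 CPM, then 1.13, 1.304 and 4.19 CPM (log2 fold change -3.94). In both genes the code-matched library was several times higher than the other MamBo38 libraries, and MamBo43 TRT lay below all 4. Bub1, of the spindle checkpoint, and the cyclin Ccnb2 were lower, with log2 fold changes of -3.66 and -2.86, and the call of Bub1 was lost without either MamBo43 TRT library.

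The called members included Aurkb, Bub1, Mki67, Ccnb2, Cenpa, Ccna2, Aurka and Ccnb1. Members that were not called included Mcm2, Mcm3, Mcm4, Mcm6, Mcm7, Pcna, Rrm1, Rrm2 and Tyms, with log2 fold changes between -1.46 and 0.22. The median log2 difference of MamBo43 TRT was -2.28 from the code-matched library and -1.07 from the other 3 MamBo38 libraries. With the code as a covariate 23 members were called lower.

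Mtap, Cdkn2a and Cdkn2b are neighbours on chromosome 4 of GRCm38, between 89137122 and 89311039, and none of them had a single count in any MamBo38 library. Mtap recycles methylthioadenosine, Cdkn2a encodes the p16 and p19ARF tumour suppressors, and Cdkn2b encodes the p15 inhibitor of CDK4 and CDK6. Mtap had 68.1 and 31.7 CPM in MamBo43 TRT and 122 CPM in the parent (at least 330.4-fold higher in MamBo43 TRT, adjusted p = 7.61e-04). Cdkn2b had 21.2, 9.44 and 18.4 CPM (at least 101.4-fold higher, adjusted p = 0.00129), and Cdkn2a 2.40, 1.15 and 3.48 CPM (at least 11.8-fold higher, adjusted p = 0.00458).

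Among the neighbours, Klhl9 starts at -418.8 kb from the start of Mtap and had 53.9 to 73.5 CPM in MamBo38 and 55.02 and 50.02 CPM in MamBo43 TRT. Dmrta1, which starts at 542.3 kb, had 0.048 to 0.190 CPM in MamBo38, 2.30 and 0.767 CPM in MamBo43 TRT and 0.235 CPM in the parent. No gene of the table between Klhl9 and Mtap reached 1 CPM in any of these 7 libraries outside 1 overlapping gene model, so that this interval gave no reading. RNA counts do not show whether DNA of this region was lost. The other called member of the list was Cdkn2d, which was lower, with 7.69 and 8.59 CPM against 16.6 to 21.3 CPM.

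**Figure D5:**
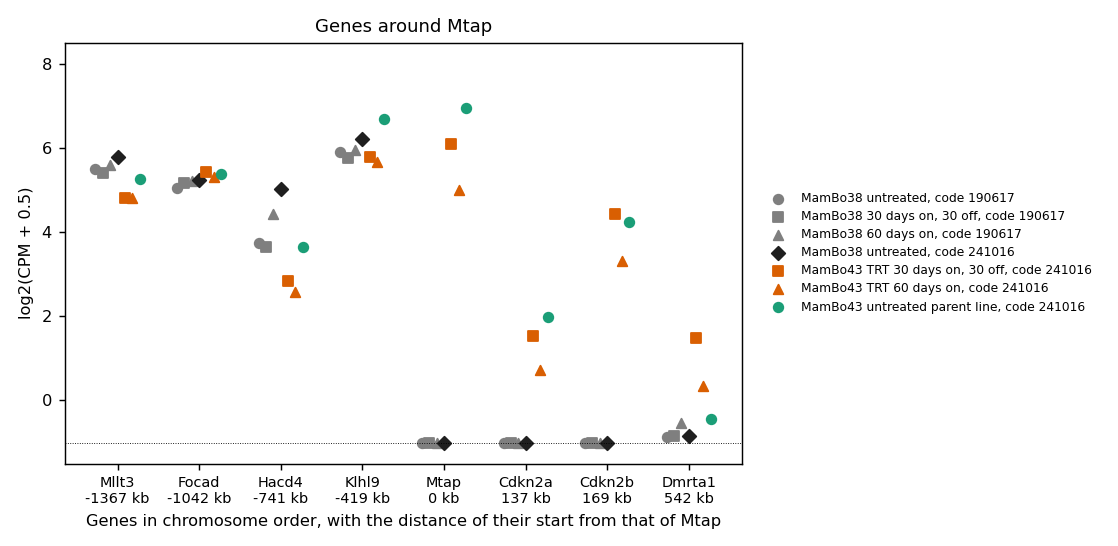
log2(CPM + 0.5) of the genes within 2 Mb of Mtap that reached 1 CPM in any of the 7 libraries (gene models without a name left out), in chromosome order with the distance of each start from that of Mtap, and the dotted line marks 0 counts. Mtap, Cdkn2a and Cdkn2b sit on that line in all 4 MamBo38 libraries and above it in MamBo43 TRT and the parent, while the 4 genes to their left are expressed in all libraries.

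Metabolic lists had shares of called members below the 21.6% of all genes. Of 29 genes of cholesterol and fatty acid synthesis, 5 were lower and 0 higher, including the desaturases Scd2 (142 and 153 CPM against 402 to 625 CPM) and Scd1 and the sterol sensor Insig1. Of 32 genes of hypoxia and glycolysis, 2 were higher and 4 lower. The glycolytic genes Gpi1 and Eno1 were lower, Gpi1 with 982 to 1621 CPM in MamBo38 against 462 and 415 CPM, and 23% of the windows of Eno1 are shared, mostly with Eno1b. Car9 was higher at 22.5 CPM in the withdrawal library and 3.22 CPM in the 60-day library, against 1.67 to 2.498 CPM. The calls of Aldoc, Ankrd37 and Eno2 were lost with the code as a covariate.

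Among markers of other cell types, Cd68 had 35.2, 49.7, 35.5 and 27.1 CPM in MamBo38 and 3.67 and 4.41 CPM in MamBo43 TRT. Mb, myoglobin, had 1.47 and 0.844 CPM in MamBo43 TRT against at most 0.114 CPM in MamBo38 and 16.2 CPM in the parent. The summed level of the 11 immune markers was 27.2 to 49.95 CPM in MamBo38, nearly all of it Cd68, and 3.97 to 4.68 CPM in MamBo43 TRT.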

How the data were processed

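RNA libraries were sequenced (11 in all), and 6 of them (2 MamBo43 TRT, 4 MamBo38) were compared. According to the submitters' processing notes, the authors used bcl2fastq, STAR 2.5, RSEM 1.3.0 and the mm10 genome, and they deposited 1 table of expected counts for 21846 genes, all of them whole numbers, without normalization. A filter on low counts is not given in the sources used here. The library kit keeps no strand, so reads of a gene and of an antisense partner cannot be told apart.

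The counts were analysed with edgeR 4.0.16 under R 4.3.3. The filterByExpr function selected genes (minimum count 10, minimum total 15), libraries were scaled by TMM, and 2 against 4 libraries were tested by glmQLFit and glmQLFTest without a covariate. Genes were called at a Benjamini-Hochberg adjusted p under 0.1 over all 12545 genes and a log2 fold change of 1 or more in size. Fold changes use a prior count of 0.125, and the standard error is the absolute log2 fold change over the square root of F. Where all libraries of a group were at 0, the fold was taken against 3 counts per library, averaged in CPM, and written as at least. Floors cover counting error only. The fit was tested on simulated data.

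Named were the 10 called genes with the largest change in each direction (groups apart, both MamBo43 TRT libraries at least 2-fold from the code-matched library, at least 10 CPM on average in the higher group, and a symbol other than a clone or model number), up to 4 called members per direction of 28 lists, and 18 genes throughout, 165 in all, of which 2 are not reported here. The 165 were picked, and the lists made, with earlier results of these data known. Lists were described by counts and medians, without a test. Differences of single levels use a pseudocount of 0.5 CPM. Shared reads were judged by the share of windows of 75 bases in a gene's transcripts that other genes' transcripts also hold. Gene positions were taken from GENCODE M21 (GRCm38, the same assembly as mm10). Alternatives were DESeq2 1.42.0, RLE scaling, 2 filters, an adjusted p under 0.05, glmTreat, robust estimation, all 11 libraries, the code as a covariate, 4 subsets of libraries and leaving out each library. MamBo89 libraries entered only the scaling and the fit of all 11.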

Additional observations from a re-analysis of the deposited data

Results flagged for a closer look

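In 147 named genes the 4 MamBo38 libraries could be checked for a library far from the other 3 by Dixon's test. Chance flags about 1 gene in 20. It was found in 19 genes, and the outlying library was the code-matched one in 18 of them. The code-matched library lay above the others in 15 genes. Its levels were 45.1 CPM of Aurkb, 29.6 CPM of Bub1, 42.1 CPM of Ccnb2 and 114 CPM of Mki67, all of the cell cycle. They were 26.5 CPM of Acta2, 22.9 CPM of Mylk, 68.6 CPM of Loxl2 and 1.06 CPM of Mmp15, which belong to contractile and matrix lists. Among secreted factors and receptors they were 8.29 CPM of Bmp2, 70.8 CPM of Bmp6, 16.9 CPM of Ccl5, 272 CPM of Il34, 13.7 CPM of Vegfd and 34.0 CPM of Egfr. The last was 625 CPM of Scd2, a desaturase. It lay below the others in 3 genes, with 2.06 CPM of Col14a1, 4.39 CPM of Itga2b and 196 CPM of Stat3. The MamBo38 library with 60 days of trastuzumab stood apart for Cdh1, at 1.52 CPM. Of these 19 genes, Egfr lost its call with the library code as a covariate, and the code and the state of that culture cannot be told apart.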

How the results depend on the processing

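The 2715 called genes (1242 higher, 1473 lower) fell to 1766 with at least 10 counts in every library, which removes genes silent in 1 group (644 higher), and to 1503 in the test against the fold change minimum (765 higher, 738 lower). All other settings gave 2500 to 3288 calls. Leaving out 1 library gave 2500 to 2729 calls, 1178 to 1311 higher and 1322 to 1464 lower, and where a group was left with 1 library, that library was assumed to vary like the others. Against the code-matched library alone, there were 2664 calls, 1944 of them shared with the 2715. Of the 156 called named genes, 114 kept direction and call in each of the 19 settings that tested them. Among named genes that were not called, the log2 fold change turned in Il6 (2.43 with the code as a covariate, called, 2.43 with code-sharing libraries only, 0.19 without MamBo38 replicate 1, and -1.25 to 0.31 over all leave-one-out fits), in Stat3 (0.38, 0.38 and 0.0092) and Itgb1 (-0.075, -0.069 and -0.0087) with the code, with code-sharing libraries and with untreated MamBo38 only, and in Zeb2 (-0.016 without MamBo38 replicate 2, and -0.095 to 0.22 over all leave-one-out fits). Of called genes, only Areg turned, at -0.31 without MamBo43 TRT replicate 1 (up to 3.31 without replicate 2). For these, the cause was not tested. The labels give no replicate numbers, and a paired fit of the 4 treated libraries with their shared schedule as a block gave 2743 calls, 2420 of them shared with the 2715. Only 2 and 4 libraries were compared, and genes under about 1 CPM rest on few counts.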

Other observations

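A group of genes was high in MamBo43 TRT alone. With a rule set after the values were seen (both MamBo43 TRT libraries at least 4-fold above the parent and every MamBo38 library, and at least 5 CPM), it held 16 genes, namely Krt14, Adam12, Cdh11, Tnc, Col10a1, Myl9, Csmd1, Moxd1, Plxdc2, Nkd1, Isg15, Lama1, Col1a1, Slc7a2, Itga11 and Bgn. Col1a1, a chain of type I collagen, had 161, 274, 191 and 216 CPM in MamBo38, 1680.5 and 1853 CPM in MamBo43 TRT and 115 CPM in the parent. The metalloproteinase Adam12 had at most 0.111 CPM in MamBo38, 54.8 and 61.8 CPM in MamBo43 TRT and 3.60 CPM in the parent. Bgn, biglycan, had 214 to 266 CPM, 1066 and 1956 CPM, and 40.8 CPM. The mirror rule for MamBo38 gave 122 genes, among them Cd34, a sialomucin of progenitor and vascular cells, with 204, 374, 200.4 and 224 CPM against 9.95 and 13.3 CPM, and Tspan11, with 60.3 to 115 CPM against 2.60 and 3.34 CPM. High in both MamBo43 TRT and the parent were 178 genes, and high in both MamBo38 and the parent were 9, Il33, Iqgap3, Mrgprf, Cd38, Flrt3, Gng7, Sema6a, Ociad2 and Aldh3b1.

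Silent genes were distributed unequally. Of all genes of the table, 60 had no count in any MamBo38 library and at least 1 CPM in both MamBo43 TRT libraries, while 3 (Kcnk5, Blnk and Sncg) had no count in either MamBo43 TRT library and at least 1 CPM in every MamBo38 library. The 4 MamBo38 libraries make the first condition the stricter one in number of libraries. Among genes known from basal epithelium, Trp63, a transcription factor of that layer, had 0.625, 0.056, 1.014 and 0.759 CPM in MamBo38, 34.3 and 41.0 CPM in MamBo43 TRT and 22.6 CPM in the parent. Cdh3, P-cadherin, had 0.980 and 11.4 CPM in MamBo43 TRT and 0.078 CPM in the parent, with 1 count in MamBo38. Both were picked after their values were seen, and genes of basal and myoepithelial cells went both ways. Krt14 and Acta2 were higher in MamBo43 TRT, whereas Itgb4 and Mylk were lower, with log2 fold changes of -1.85 and -1.52.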
